A study of Drosophila melanogaster with 4 samples.

Results

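The genes described here are 5 Drosophila genes of neuronal receptors and ion channels: GluClalpha (CG7535), nAChRbeta1 (CG11348), 5-HT1A (CG16720), 5-HT2A (CG1056) and Elk (CG5076). They were taken by name from the annotation of a spotted cDNA array, and they are 5 of 2664 named genes with a value on at least 1 array and of 2027 with a value in every distinct set of values. Male flies of the wild-type strain Oregon-R, kept unmated, spent 7 days on food with 3.33 mg/ml strychnine or on normal food, and their head RNA was compared on 4 two-colour arrays. Treatment began at 3 to 4 days of adult age, with 30 flies in a vial at 24 °C, and each RNA came from pooled heads of several vials. Treated and control flies shared strain, sex and mating state, and each array set a treated pool against the control pool of its own parallel set. Treated RNA was labelled with Cy5 on replicates 1 and 2 and with Cy3 on replicates 3 and 4.

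Strychnine is a plant alkaloid that blocks the glycine receptor of vertebrates, a chloride channel of the Cys-loop family that inhibits neurons. Drosophila GluClalpha encodes a glutamate-gated chloride channel subunit of the same family and is known as a target of ivermectin. nAChRbeta1 encodes a subunit of nicotinic acetylcholine receptors, also of the Cys-loop family, which pass cations and carry fast excitation in the insect brain. 5-HT1A and 5-HT2A encode G protein-coupled serotonin receptors, the first of a type that lowers cyclic AMP and the second of a type that acts through calcium signalling. Elk encodes a voltage-gated potassium channel of the ether-a-go-go group.

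The deposited values were log ratios, read here as log2, of which 9356, 8894, 7647 and 9725 were present on replicates 1 to 4 among 27648 spots. Replicates 1 and 3 held identical numbers at 7643 of 7643 spots measured on both, so they were averaged and counted as 1 sample, here the shared set. That left 3 distinct sets: the shared set, replicate 2 and replicate 4. Every array was centred on its median. The direction of the ratio was not settled by the labels, so values are given with the sign of the deposited ratio and no value is called higher or lower in treated heads. Each gene was read in 2 ways. If the ratio was already treated over control, its effect is the mean of the 3 sets. If the ratio was Cy5 over Cy3, its effect is the difference between replicates 2 and 4 divided by 2, called the dye contrast below. For that contrast a positive value means more RNA in treated heads. The shared set cannot be turned, because its labels name opposite dyes.

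GluClalpha had the most negative mean of the 5 genes after centring, but not after a correction for slide position. That correction (block medians and a local trend subtracted) moved its mean from -0.758 to -0.09996, with 2 of 3 sets positive and Elk then the lowest of the 5. With block medians alone subtracted, the mean was -0.351 (limma adjusted p = 0.372), and 5-HT2A was the lowest at -0.631. The log2 ratios of GluClalpha after centring were -0.336 (shared set), -1.02 (replicate 2) and -0.922 (replicate 4). All 3 sets were negative, and the shared set lay closest to 0. The mean was -0.758 ± 0.368 (SD, n = 3 sets), a size of 1.69-fold, with a 95% interval of -1.28 to -0.239. It did not pass the threshold of 0.05 over the 4002 genes and unnamed spot pairs tested (adjusted p = 0.0683, limma with Benjamini-Hochberg adjustment), of which 350 or 8.75% did, 298 or 7.45% with a positive and 52 or 1.30% with a negative mean. That number of calls was 7 of 4237 units without replicate 2 and 503 of 4323 without replicate 4. Without replicate 1 it was 64 of 3190, and without replicate 3 it was 422 of 4001. Replicates 1 and 3 held identical numbers, so these last 2 fits differ only in which spots had a value and in the centring. The number of calls was 0 with the values as deposited, when scaled and after the position correction. Of the 2027 named genes, 124 had a lower mean than GluClalpha, or 6.12%. Because replicates 2 and 4 carried opposite dyes and gave nearly the same ratio, the dye contrast was close to 0, at -0.0470 ± 0.291 (SE; 95% interval -0.745 to 0.651, adjusted p = 0.997). Its sign changed with the scaling and position alternatives. The 2 spots of GluClalpha differed by 0.0700 (shared set), 0.284 (replicate 2) and 0.0510 (replicate 4), where the median difference of duplicate spots was 0.138, 0.158 and 0.168. On replicate 2, 73.5% of duplicate pairs differed by less. In pooled heads, a difference in the number of cells of a type and a difference in RNA per cell cannot be told apart.

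**Figure D1:**
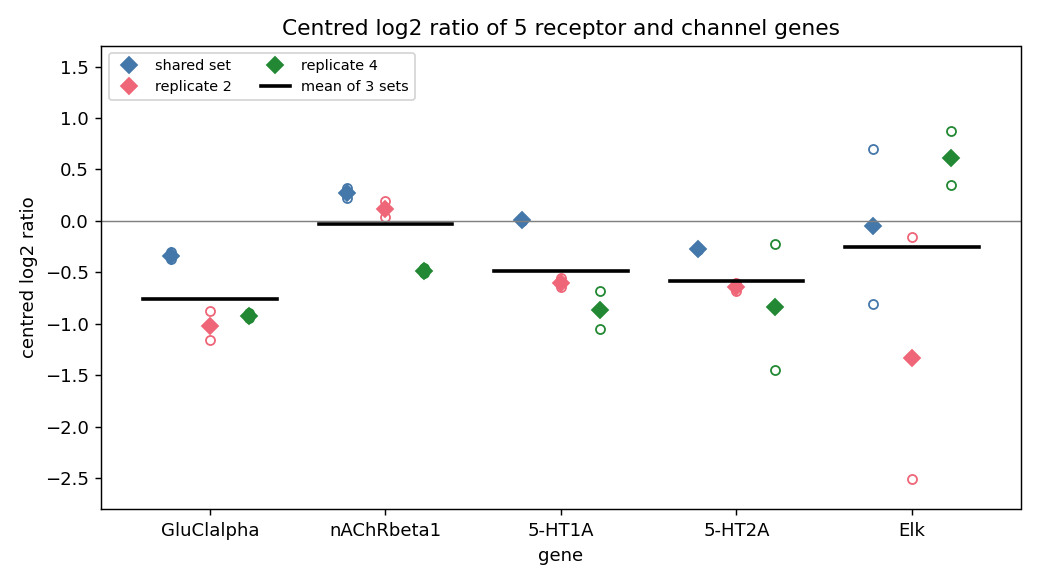
Centred log2 ratios (vertical axis) of the 5 genes (horizontal axis); open circles are the 2 spots of a gene, diamonds their mean in each of the 3 sets and black lines the mean of the 3 sets. GluClalpha and 5-HT2A were negative in all 3 sets, and the spots of Elk lay 1.50 and 2.35 apart in the shared set and on replicate 2.

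Other ligand-gated chloride channels were sparsely measured. Of 11 genes in that list 4 were on the array, and 2 had any value. The other one was alka, a Drosophila chloride channel gene for the taste of alkaline food. Its ratio was 0.231 in the shared set and 0.413 on replicate 2, with none on replicate 4, so it entered no test. Position-corrected, these were 0.128 and 0.221, and GluClalpha, negative in both sets before it, was positive in both. Lcch3, a GABA receptor subunit gene of the family, and CG6927 had spots but no value on any array.

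nAChRbeta1, the cholinergic gene, lay near 0. Its log2 ratios after centring were 0.271 (shared set), 0.114 (replicate 2) and -0.484 (replicate 4). The shared set and replicate 2 were positive and replicate 4 negative, and the mean was -0.0330 ± 0.398 (SD, n = 3 sets; 95% interval -0.563 to 0.497, adjusted p = 0.933). Without replicate 4 it was 0.192. The dye contrast was 0.299 ± 0.274 (SE; 95% interval -0.358 to 0.955, adjusted p = 0.991). Of the named genes 52.1% had a lower mean, and 80.8% had one after the position correction. Among 10 nicotinic receptor genes 5 were on the array and 1 further gene had a value. That was nAChRalpha4, another subunit gene, with 0.948 on replicate 4 alone. The same array gave a negative ratio for nAChRbeta1. Position-corrected, the values on replicate 4 were 0.280 for nAChRalpha4 and -0.000622 for nAChRbeta1.

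After centring, the 2 serotonin receptor genes had their values in the same order across the sets. That order was also seen in nAChRbeta1, and in DopEcR, Sh, Slob, CG1688 and CG11155, described below. Its share over all units was not counted. 5-HT1A was at 0.00700 (shared set), -0.600 (replicate 2) and -0.863 (replicate 4). 5-HT2A was at -0.274, -0.640 and -0.836 in the same order. Both were lowest on replicate 4 and nearest 0 in the shared set. The means were -0.485 ± 0.446 for 5-HT1A (95% interval -1.04 to 0.0649, adjusted p = 0.187) and -0.583 ± 0.285 for 5-HT2A (95% interval -1.07 to -0.0935, adjusted p = 0.102; SD, n = 3 sets). Neither passed the threshold. 5-HT1A minus 5-HT2A was 0.0977 ± 0.162 (SD, n = 3 sets), a difference smaller than its own spread. The dye contrasts were 0.132 ± 0.304 and 0.0977 ± 0.275 (SE), with an adjusted p of 0.996 for each. On replicate 4 the 2 spots of 5-HT2A differed by 1.22, more than 97.5% of duplicate pairs on that array. Its deposited values there were -2.07 and -0.847, while the spots of the other sets differed by 0.0250 and 0.0790. The position correction changed the order: 5-HT1A was then lowest on replicate 2 (-0.387), and 5-HT2A was nearest 0 there (-0.231).

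Of 25 amine, muscarinic, GABA-B and metabotropic glutamate receptor genes 11 were on the array and 4 were measured. None passed the test, where 8.75% of all units did. The others were DopEcR, a receptor gene for dopamine and ecdysteroids, and Octbeta2R, an octopamine receptor gene. DopEcR was at 0.890, -0.343 and -1.17 in the shared set and on replicates 2 and 4, the widest spread of the 4. Octbeta2R was at 0.0550, -0.348 and -0.340. DopEcR had a mean of -0.209 ± 1.04 (adjusted p = 0.718) and Octbeta2R one of -0.211 ± 0.230 (adjusted p = 0.488; SD, n = 3 sets). All 4 means in the list were negative, and those of the members 5-HT1A and 5-HT2A were the lowest. The median of the 4 was -0.348 against -0.0580 over all named genes. After the position correction the median was -0.331, the mean of DopEcR -0.623 and that of 5-HT1A -0.194, and Octbeta2R turned to 0.0157.

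Elk was the gene of the 5 whose sets differed most. Its log2 ratios after centring were -0.0525 (shared set), -1.33 (replicate 2) and 0.610 (replicate 4). Replicates 2 and 4 lay on opposite sides of 0, and the mean of -0.258 ± 0.986 (SD, n = 3 sets; 95% interval -1.10 to 0.589, adjusted p = 0.643) lay between them. Without replicate 2 that mean was 0.279, and without replicate 4 it was -0.691. The dye contrast was -0.970 ± 0.263 (SE; 95% interval -1.60 to -0.339), which would mean less Elk RNA in treated heads under the Cy5 over Cy3 reading. Only 0.493% of named genes had a lower dye contrast, and the unadjusted p was 0.00878. That p and the interval come from limma and measure no repeat of the contrast, which rests on replicates 2 and 4 alone. The adjusted p was 0.900, and limma called 0 of 4002 units in that contrast (0%), with 173 at an unadjusted p under 0.05.

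The spots behind Elk disagreed as well. On replicate 2 its spots had centred values of -2.51 and -0.155, a difference larger than in 99.5% of duplicate pairs. In the shared set they were at -0.803 and 0.698, a difference larger than in 98.2% of pairs. On replicate 4 they were at 0.348 and 0.872. The first spot lay below the second in each set. From the first spots alone the dye contrast of Elk was -1.43, and from the second spots alone it was -0.513. The mean of the sets was -0.987 from the first and 0.472 from the second.

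Of 29 potassium channel genes, regulators included, 12 were on the array and 4 were measured in all sets. None passed. Sh, the Shaker channel gene, was at -0.130 (shared set), -0.853 (replicate 2) and -1.001 (replicate 4), and averaged -0.661 ± 0.466 (SD over 3 sets, adjusted p = 0.104). Slob, which encodes a protein that binds the Slowpoke channel, had a mean of -0.475 ± 0.338 (adjusted p = 0.167). CG1688, a gene of tandem-pore leak channels, was positive at 1.02, 0.5785 and 0.4965, and averaged 0.699 ± 0.283 (SD over 3 sets, adjusted p = 0.0711). Irk1, an inward rectifier gene, had -0.172 in the shared set and -0.594 on replicate 4 only. Sh and Slob were negative and CG1688 positive in all sets, and the sign of Elk varied. Of all units 26.2% were negative and 28.8% positive in all 3. The position correction made the signs of Sh (0.0899, -0.336 and -0.181) and CG1688 (0.766, 0.404 and -0.0479) vary too, with means of -0.142 and 0.374. Slob stayed negative in all 3 sets (-0.357, -0.106 and -0.979), with a mean of -0.481.

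**Figure D2:**
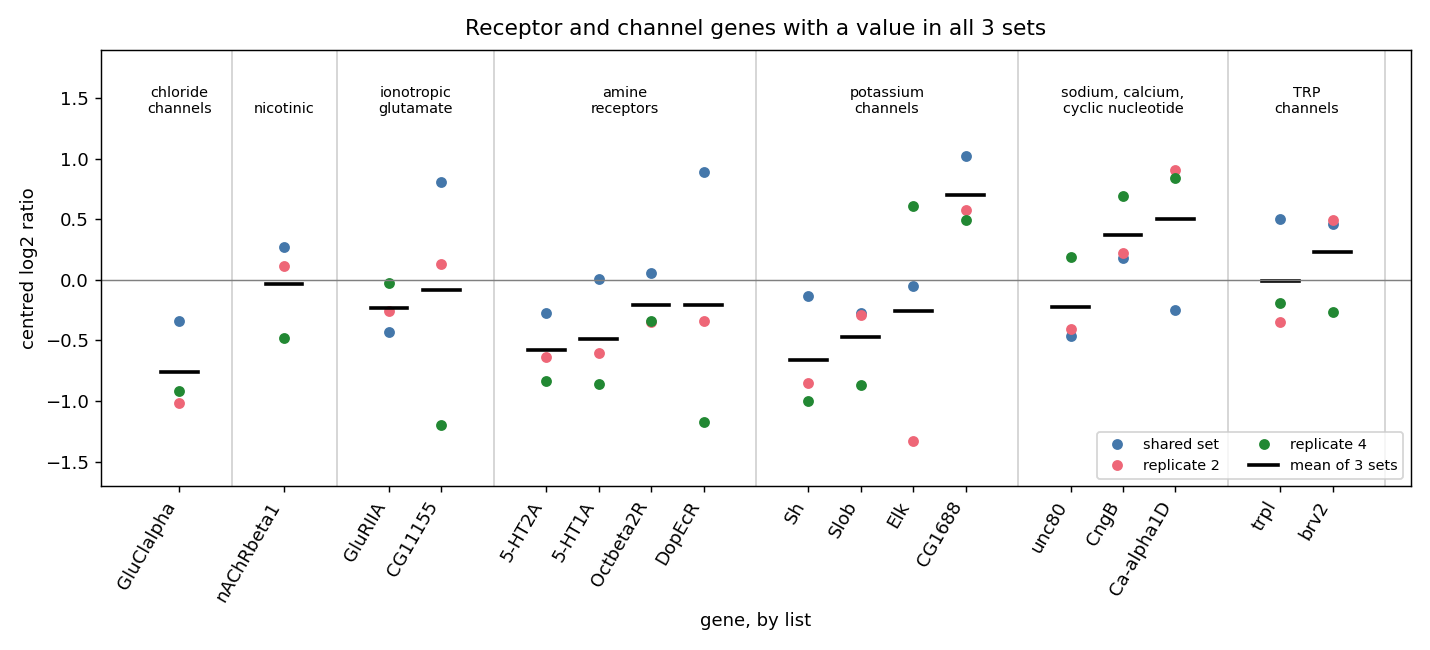
Centred log2 ratios (vertical axis) of the 17 receptor and channel genes with a value in all 3 sets (horizontal axis, grouped by list and ordered by mean within a list); coloured points are the sets and black lines the mean of 3 sets. The lowest mean is that of GluClalpha (-0.758) and the highest that of CG1688 (0.699).

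Set side by side, the order of means from the lowest was GluClalpha, 5-HT2A, 5-HT1A, Elk and nAChRbeta1. GluClalpha lay below nAChRbeta1 in 3 of 3 sets, with differences of -0.6065 (shared set), -1.13 (replicate 2) and -0.438 (replicate 4) and a mean difference of -0.725 ± 0.361 (SD over 3 sets). After the position correction these were -0.00525, -0.0681 and -0.739, with a mean of -0.271 ± 0.407. It also lay below 5-HT1A and 5-HT2A in 3 of 3 sets, with mean differences of -0.272 ± 0.189 and -0.175 ± 0.174. The 3 differences before the correction gave p = 0.25 each in a two-sided exact sign permutation test, the smallest p that 3 sets allow, and 0.333 after Benjamini-Hochberg adjustment over 4 differences. Against Elk the difference was -0.500 ± 0.942, lower in 2 of 3 sets (exact permutation p = 0.75). Neighbours in the order differed by no more than about their spread: 5-HT1A minus Elk was -0.228 ± 1.13, and nAChRbeta1 minus Elk was 0.225 ± 1.27 (SD, n = 3 sets). nAChRbeta1 lay above 5-HT2A in every set, by 0.550 ± 0.201, and above 5-HT1A by 0.452 ± 0.234. Neither of these differences was tested. As 2 of 5 genes, GluClalpha and 5-HT2A were negative in all 3 sets, where 26.2% of all units were.

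The place of a spot on the slide moved with these values. Read as 48 blocks of 576 spots, the array had 20 blocks with a negative median and 15 with a positive one in all 3 sets. The spots of GluClalpha lay in block 32, whose other spots had medians of -0.367 (shared set), -0.693 (replicate 2) and -0.141 (replicate 4). Within that block 54.0%, 27.2% and 2.91% of spots had a lower value than GluClalpha in the same order. Among the 10 to 12 spots within 3 rows and columns of it, the medians were -0.873, -1.24 and -0.0785. GluClalpha minus its neighbours' median was 0.537 in the shared set and 0.226 on replicate 2, and -0.843 on replicate 4. After subtraction of block medians and a loess over rows and columns, it was at 0.326, 0.113 and -0.740. The sets then had opposite signs, and the mean was -0.09996 ± 0.564 (SD, n = 3 sets; 95% interval -0.697 to 0.497, adjusted p = 0.836). After this correction 42.6% of named genes had a lower mean than GluClalpha, limma called 0 of 4002 units (0%), and 814 had an unadjusted p under 0.05. The part of position in the ratio of GluClalpha was not tested beyond these values.

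Of the 5 genes, 5-HT2A changed least in its mean under the same correction. The other spots of its block had medians near 0, at 0.164, -0.0615 and 0.0490 in the shared set and on replicates 2 and 4, and 5-HT2A minus that median was -0.438, -0.579 and -0.885. It was at -0.326, -0.231 and -0.844 after the correction, still negative in 3 of 3 sets, as were 22.7% of all units. The mean was -0.467 ± 0.330 (SD, n = 3 sets; 95% interval -0.888 to -0.0462, adjusted p = 0.212). 5-HT1A was at 0.173, -0.387 and -0.369, a mean of -0.194 (adjusted p = 0.548). nAChRbeta1 was at 0.332, 0.182 and -0.000622, a mean of 0.171 (adjusted p = 0.505). Elk was at -0.713, -1.35 and 0.336, a mean of -0.575 (adjusted p = 0.395), and its dye contrast was -0.843 (adjusted p = 0.987). The order of means was then Elk, 5-HT2A, 5-HT1A, GluClalpha and nAChRbeta1. With block medians alone it was 5-HT2A (-0.631), Elk (-0.539), GluClalpha (-0.351), 5-HT1A (-0.231) and nAChRbeta1 (-0.114). After the full correction GluClalpha lay above 5-HT2A in 3 of 3 sets, by 0.367 ± 0.275 (SD, n = 3 sets), the opposite of the order before. nAChRbeta1 stayed above 5-HT2A in 3 of 3 sets, by 0.638 ± 0.216, and above 5-HT1A in 3 of 3, by 0.365 ± 0.205. These differences were not tested.

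**Figure D3:**
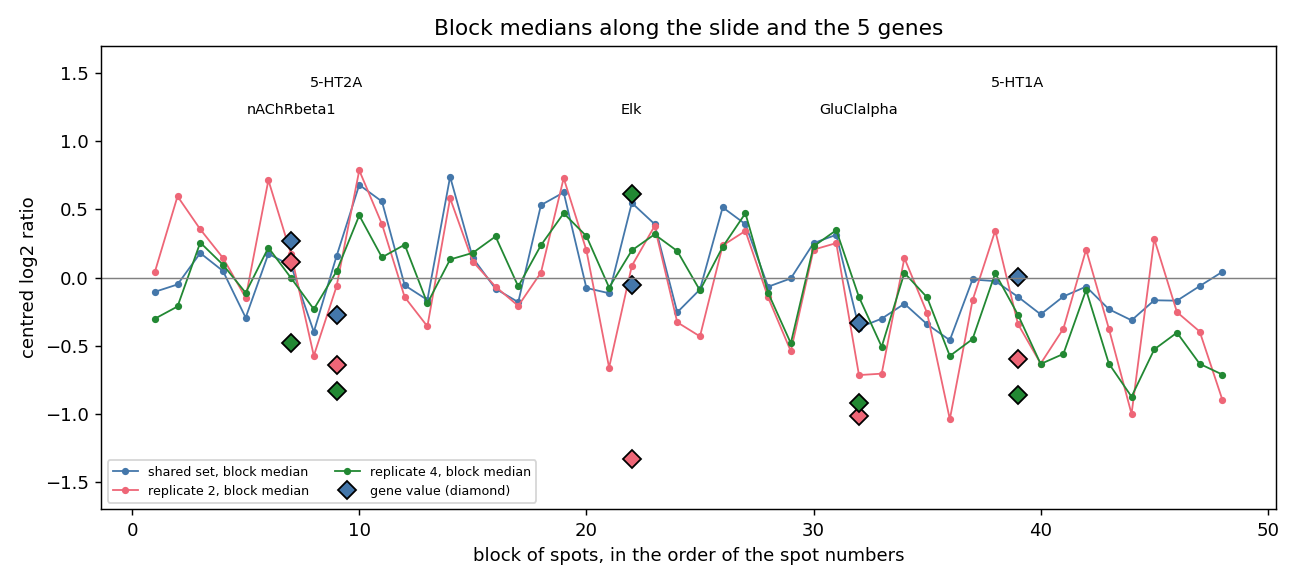
Median centred log2 ratio (vertical axis) of each of 48 blocks of spots in the order of the spot numbers (horizontal axis), as a line for each set, with the values of the 5 genes as diamonds in their own blocks. The diamonds of GluClalpha lie in block 32, where all 3 medians are negative, and those of 5-HT2A lie below the medians of block 9.

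**Figure D4:**
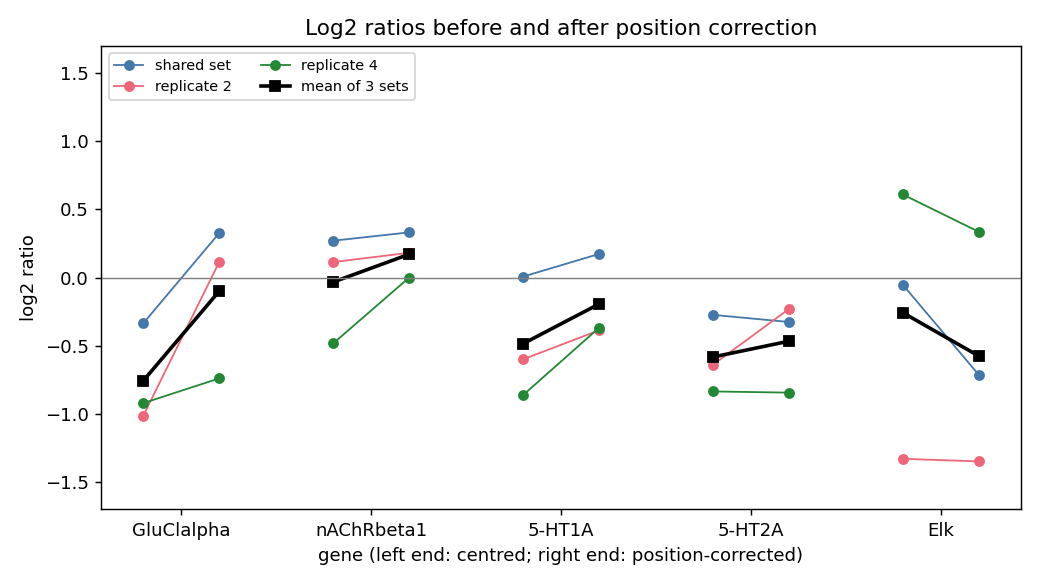
Log2 ratio (vertical axis) of each gene (horizontal axis) after centring, at the left end of a line, and after the position correction, at the right end; colours are the sets and black squares the mean of 3 sets. The mean of GluClalpha moved from -0.758 to -0.09996 and that of 5-HT2A from -0.583 to -0.467.

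Over all 7 lists of receptors and channels, 125 genes were listed, 55 were on the array, 22 had any value and 17 had a value in all sets. The share of genes on the array with any value was 40.0%, against 39.2% for all 6793 named genes on it. The remaining 33 genes, among them the photoreceptor channel gene trp and the NMDA receptor gene Nmdar1, had spots and no value. None of the 17 passed in either reading, where 8.75% of all units did in the mean of the sets and 0% in the dye contrast. The 12 genes other than the 5 described had a median of -0.148 for the mean of the sets. Of these 12, 3 were negative and 2 positive throughout, where 26.2% and 28.8% of all units were. The 5 genes had a median of -0.485, and all 2027 named genes had -0.0580. After the position correction these medians were -0.0632, -0.194 and -0.0572.

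Among ionotropic glutamate receptors, 2 of 14 genes were measured in all sets. GluRIIA, a subunit gene of the neuromuscular junction, was at -0.236 ± 0.204, and CG11155 was at -0.0865 ± 1.02 (SD, n = 3 sets). Of 20 sodium, calcium and cyclic nucleotide channel genes 3 were measured in all sets. Ca-alpha1D, the L-type calcium channel subunit, was at 0.498 ± 0.646, CngB at 0.366 ± 0.285, and unc80, a subunit of the sodium leak channel complex, at -0.227 ± 0.361 (SD, n = 3 sets). Of 16 transient receptor potential channel genes 2 were, with trpl, a light-activated channel of photoreceptors, at -0.0117 ± 0.453 and brv2 at 0.232 ± 0.428 (SD, n = 3 sets). These 7 genes had adjusted p between 0.242 and 0.980. After the position correction Ca-alpha1D was at -0.263, CngB at 0.0304, unc80 at -0.366, GluRIIA at 0.0679, CG11155 at -0.203, trpl at 0.129 and brv2 at 0.339, so Ca-alpha1D, GluRIIA and trpl changed sign. Of 13 genes for making, moving and breaking down acetylcholine and serotonin, none had a value in all sets. Ddc, the dopa decarboxylase gene that serves serotonin synthesis, was at -0.235 in the shared set and -1.43 on replicate 2.

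Markers of head cell types were measured in part, and ratios give no level for any of them. Of 12 neuron markers 3 were on the array and 2 were measured: nSyb, neuronal synaptobrevin, at 0.199, -1.21 and 0.0110 in the shared set and on replicates 2 and 4, and Rab3, a synaptic vesicle GTPase, at 0.252, -1.47 and -1.24. Both were negative on replicate 2, as GluClalpha, 5-HT1A, 5-HT2A and Elk were, while nAChRbeta1 was positive there (0.114). On that array the medians of glia, muscle and photoreceptor markers were negative too (-0.675, -0.717 and -0.289). That of fat body markers was positive (0.7875). The means of nSyb and Rab3 over the sets were -0.332 and -0.820, with adjusted p of 0.469 and 0.147. The defining genes elav and brp had no spot under those symbols. Of 12 glia markers 4 were measured, with a median of -0.196 and means from -0.712 for Gs2, glutamine synthetase, to 0.290 for Gli. Medians of 5 muscle, 5 fat body and 4 photoreceptor genes were -0.518, -0.113 and -0.0936. After the position correction the neuron, glia, muscle, fat body and photoreceptor medians were -0.421, -0.164, 0.157, -0.113 and -0.140, so that of muscle changed sign. None of these markers passed the threshold, which 8.75% of all units passed in the mean of the sets. Their part in the values of the 5 genes was not tested.

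The named genes nearest in pattern, by Euclidean distance over the 3 centred sets, were CG13739 (0.0984) and Caper (0.109) for GluClalpha. For nAChRbeta1 they were St3 (0.0988) and dpr16 (0.120). For 5-HT1A they were zfh2 (0.148) and CG3036 (0.154), and for 5-HT2A Obp56h (0.100) and psidin (0.119). Elk had fewer close neighbours, with CG3698 at 0.169 and CG1965 at 0.513. Between the 5 genes the shortest distance was 0.285, between 5-HT1A and 5-HT2A, and the longest was 1.84, between nAChRbeta1 and Elk. CG13739 and Caper lay in blocks 36 and 39, and their means of -0.747 and -0.766 were -0.0876 and -0.196 after the position correction.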

How the data were processed

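Head RNA of 4 parallel sets of treated and control pools was hybridised to spotted cDNA slides. The authors quantified images with GenePix Pro 6.0, normalized by ratio in Acuity 4.0, filtered spots on saturation, flags, uniformity and signal to noise, and used SAM 3.0, per the series' design text. The deposited values are log2 ratios as read here; no source used here gives their log base, centring or direction. Replicates 1 to 4 had medians of -0.121, -0.379, -0.179 and -0.621. Brightness behind a ratio was not used here, and the number of arrays limits the precision. Cross-hybridisation between related genes was not tested.

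Spots were named from the platform annotation (15116 with 1 symbol, 102 with several, 12430 with none), averaged by symbol or, unnamed, by duplicate pair, and centred per array. Replicates 1 and 3 were averaged. Both readings were fitted with limma 3.58.1 (R 4.3.3) over the 4002 units with a value in all 3 sets. The dye contrast used codes of 1, -1 and 0 (shared set) with a dye term and has 1 residual degree of freedom. Where replicate 1 or 3 was left out, the shared numbers took the code of the replicate kept, -1 without replicate 1 and 1 without replicate 3. The threshold was a Benjamini-Hochberg adjusted p of 0.05, two-sided. The labels call the arrays biological replicates. The limma intervals and p-values combine the spread between the 3 sets with that of all units. The prior degrees of freedom were 4.97 (mean of the sets) and 5.55 (dye contrast). An interval can therefore be narrower than the SD beside it would give. In the dye contrast the residual only sets the shared set against the mean of replicates 2 and 4. It measures no repeat of that contrast. The position correction subtracted the median of each of 48 blocks of 24 rows and columns, then a robust loess (span 0.4, degree 1, blocks with at least 30 values). Other alternatives were deposited values, block medians alone, scale and quantile normalization, medians of spots, named genes only, values in 2 of 3 sets, 4 columns as labelled, each replicate left out, a threshold of 0.10 and no dye term. Single spots and another order of averaging and centring were added after seeing the data. The genes named were the 5 members, up to 4 others per list with the smallest unadjusted p, and the 2 nearest in pattern. Irk1, alka, nAChRalpha4, Ddc, Lcch3, CG6927, trp and Nmdar1 were named outside that rule. Members and lists were chosen with earlier results of these data known.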

Additional observations from a re-analysis of the deposited data

How the results depend on the processing

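In the mean of the sets, GluClalpha, 5-HT1A and 5-HT2A stayed negative under all 17 alternatives. Their ranges were -1.14 to -0.09996, -0.868 to -0.194 and -0.966 to -0.362. Not every alternative could change a mean. Medians of spots, named genes only, allowing a missing set and a threshold of 0.10 left these means unchanged by construction. Leaving out either of the columns with identical numbers, or joining them before centring, shifted the means only through the centring. GluClalpha was then between -0.767 and -0.748. GluClalpha passed at a threshold of 0.10 (-0.758), as 1002 of 4002 units did. With 4 columns as labelled it passed too (-0.652, limma adjusted p = 0.0383), and so did 5-HT2A (-0.506, adjusted p = 0.0489). In that setting 901 of 3189 units passed, and the identical columns are counted separately. nAChRbeta1 turned positive with the position correction (0.171), 4 columns (0.0429), second spots alone (0.0188) and without replicate 4 (0.192; lowest with a replicate left out -0.107). Elk turned positive with second spots (0.472) and without replicate 2 (0.279; lowest -0.691).

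The dye contrast of GluClalpha turned positive as deposited (0.0743), after the position correction (0.427) or block medians alone (0.239), when scaled (0.105), with quantile normalization (0.0556), first spots (0.0112) and without replicate 3 (0.116; -0.201 without replicate 1). That of 5-HT1A turned negative after the position correction (-0.00911) and without replicate 1 (-0.0932; 0.276 without replicate 3). That of 5-HT2A turned with second spots (-0.187) and without replicate 1 (-0.0500; 0.182 without replicate 3). Those of nAChRbeta1 and Elk kept their signs, from 0.0911 to 0.420 and from -1.43 to -0.4995. Without replicate 1 or 3 the same shared numbers were coded -1 or 1 in place of 0, so the design itself changed in those fits. Without replicate 2 or 4 the dye contrast could not be fitted.

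GluClalpha minus 5-HT1A turned positive after the position correction (0.0943). GluClalpha minus 5-HT2A did so there (0.367), with block medians (0.279) and first spots (0.0900). GluClalpha minus Elk did so there (0.475), with block medians (0.187), first spots (0.273) and without replicate 4 (0.0155; -0.908 without replicate 2). GluClalpha minus nAChRbeta1 stayed negative, from -0.868 to -0.238. Medians of spots, leaving out replicate 1 or 3, and joining them before centring left every difference unchanged by construction. Each gene has 2 spots, replicates 1 and 3 held the same numbers, and centring cancels in a difference.

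Against 350 of 4002 units in the mean of the sets, 0 passed as deposited and 0 after the position correction. Scaling and second spots also gave 0. With block medians 8 passed, with first spots 134 of 3964, and among named genes alone 177 of 2027. Quantile normalization gave 582, 4 columns gave 901 of 3189 and the looser threshold gave 1002 of 4002. Positive calls were 298 of 350 in the main setting, 421 of 582 with quantile normalization and 467 of 901 with 4 columns. Leaving out a replicate gave 7 of 4237 (without replicate 2) to 503 of 4323 (without replicate 4). It gave 64 of 3190 without replicate 1 and 422 of 4001 without replicate 3, which differ only in spots present and centring. The dye contrast gave 11 units as deposited, 1 without replicate 1 and 2 without replicate 3, where the code of the shared numbers changed as well. The cause of these changes in calls was not tested. Every array already pairs a treated pool with its own control pool and there is 1 group, so no further pairing was made.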
